A study of Mus musculus with 30 samples.

Results

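The angiopoietins, apelin, endothelin 1, adrenomedullin, several of their receptors and endothelial nitric oxide synthase were followed in the immature mouse uterus after estradiol (E2) or insulin-like growth factor 1 (IGF1). The genes were chosen by name, with earlier results of these data known: Angpt1, Angpt2, Tek, Tie1, Apln, Aplnr, Edn1, Ednra, Nos3 and Adm. Of these 10, 9 had exactly 1 probe set annotated with that symbol alone, among 30142 genes tested, and Ednra was not analysed here. In RefSeq annotation of GRCm38.p6 the 9 protein-coding genes lie at chr7:110627657-110629820 (Adm), chrX:48025146-48034853 (Apln), chr15:42424667-42676977 (Angpt1), chr8:18690263-18741562 (Angpt2), chr13:42301476-42307990 (Edn1), chr4:94739086-94874976 (Tek), chr4:118471191-118489849 (Tie1), chr2:85136360-85139923 (Aplnr) and chr5:24364816-24384474 (Nos3). Whole uteri came from female mice 21 days old, either KO (an estrogen receptor alpha knockout labelled Ex3aERKO) or WT, and RNA of each was measured on Affymetrix whole-transcript arrays. Each genotype had 5 groups of 3 arrays, 30 arrays in all. The E2 24 h and E2 2 h groups received 250 ng of E2 in 100 ul of saline into the peritoneum, and the uterus was taken at the named time. The IGF1 24 h group received 50 ug of IGF1 in PBS at 0, 8 and 16 h, and the IGF1 2 h group received 50 ug as 1 injection. The vehicle group received 100 ul of saline and was taken at 24 h. The labels do not say whether the 3 arrays of a group came from separate animals, so the spread behind each p-value is that between the samples and may be technical. The vehicle arrays are all from 24 h, so in comparisons of a 2 h group with vehicle the treatment and the time since injection cannot be told apart, whereas KO against WT is matched in time and in injections. E2 against IGF1 is matched in time since the first injection. The carrier was saline for E2 and vehicle and PBS for IGF1. When IGF1 is set against E2 or vehicle, the agent and its carrier therefore cannot be told apart. In the comparisons that involve an IGF1 24 h group, set against E2, vehicle or the IGF1 2 h group, the 3 injections, the last at 16 h, cannot be told apart from the agent or the time. The treatment comparisons of a genotype share its 3 vehicle arrays.

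These genes belong to signalling systems through which vessels open, loosen and mature. Angpt1 is the agonist of the endothelial receptor tyrosine kinase Tek (also called Tie2) and stabilises vessels, Angpt2 is another ligand of Tek that often opposes Angpt1 and loosens vessel walls, and Tie1 is a partner receptor of Tek. Apelin (Apln) acts through the G-protein-coupled receptor Aplnr in vessel growth and dilation, endothelin 1 (Edn1) is a strong constrictor of vascular smooth muscle, Nos3 makes the dilator nitric oxide in endothelium, and adrenomedullin (Adm) is a dilator peptide that acts through Calcrl paired with Ramp2 or Ramp3. In the uterus of rodents, estrogen is known for a fast rise of blood flow, vessel leakiness and water uptake that comes before growth.

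All values are log2 intensities as deposited, so a difference of 1 is a 2-fold difference. Signal of 1225 olfactory receptor genes set a background floor for each array (their 95th percentile), between 5.69 and 6.57. Of the 9 genes, 6 were above the floor on all 30 arrays, Apln and Nos3 on 29 and Adm on 22. The endothelial markers Pecam1 (8.46 to 9.87) and Cdh5 (9.48 to 11.63) were above the floor on every array. They are among the brighter of 15 measured blood endothelial markers. Of these 15, the number with a group mean above the floor ran from 13 (WT vehicle among others) to 15 (WT E2 24 h among others). The dimmest were Sox18 (mean 5.71 over all arrays) and Plvap (5.92). Esr1, which encodes estrogen receptor alpha, was at 9.38 to 10.41 in KO arrays and 11.44 to 12.73 in WT arrays; the array may read exons outside the deleted stretch, so this is a limited check of the genotype. WT vehicle replicate 1 stood apart: Xist was at 10.16 there and between 17.01 and 18.12 on the other arrays, and the array had the lowest weight when weights were estimated (0.166). KO E2 24 h replicate 2 (weight 0.259) was the next lowest. The Y-linked genes Eif2s3y, Kdm5d and Uty were at most 5.39, 5.13 and 4.86 on WT arrays, under the lowest floor. The cause of the low Xist value was not tested. These are whole-tissue measurements, in which fewer cells of a type and less RNA per cell cannot be told apart.

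**Figure D1:**
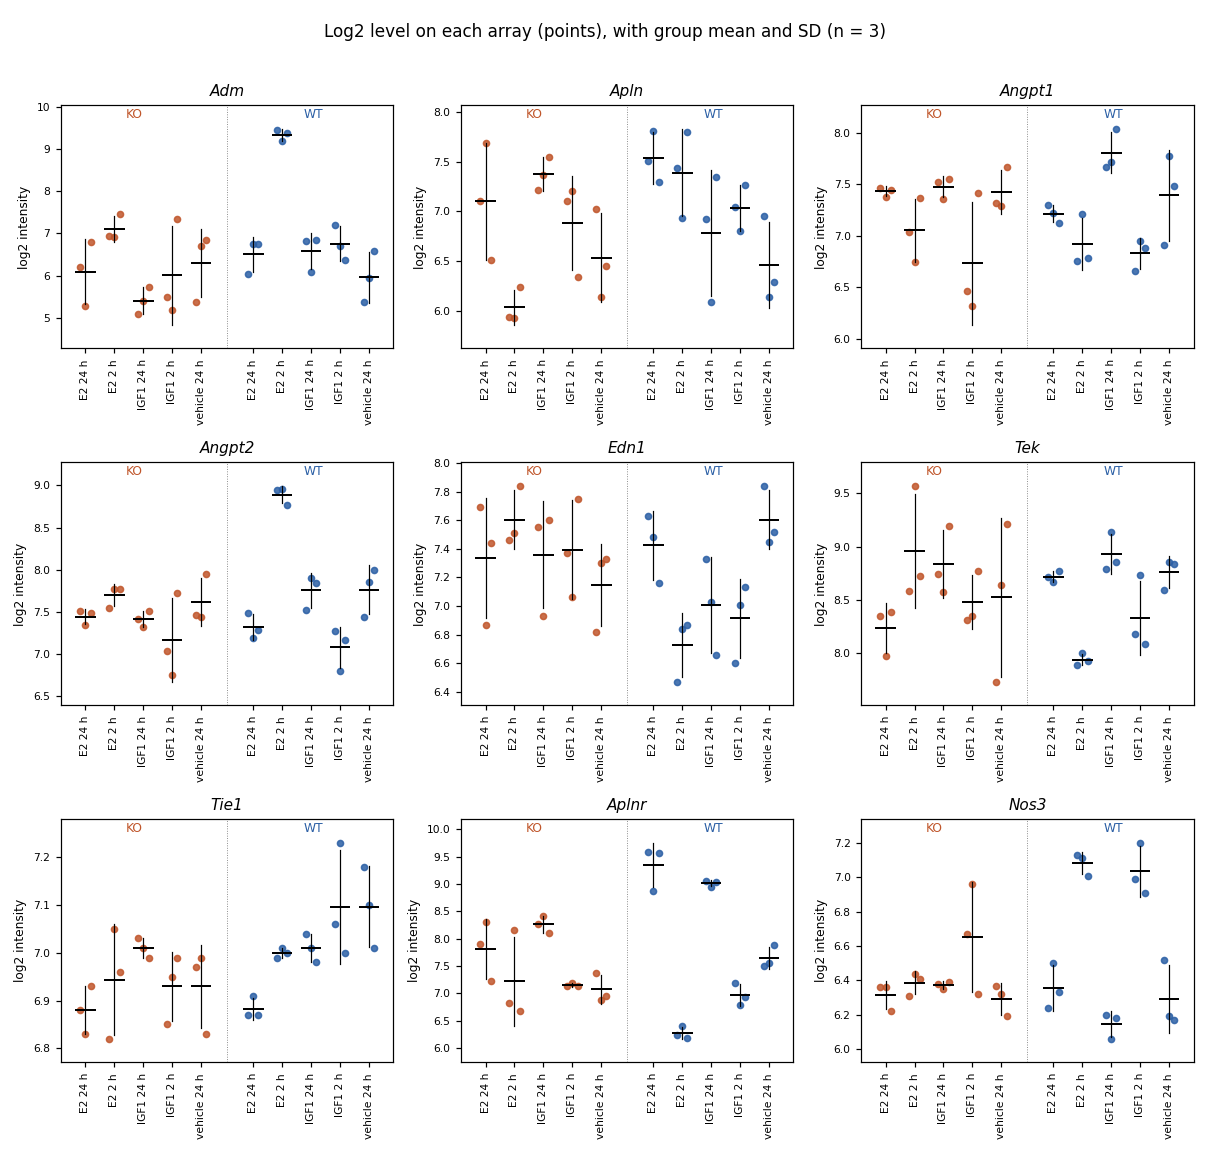
Log2 intensity of each of the 9 genes on all 30 arrays. Points are arrays, horizontal lines group means and vertical lines the SD over 3 arrays; each panel has its own log2 axis, so heights are not comparable between genes. Adm and Angpt2 stand highest in the WT E2 2 h group, and Aplnr is highest in the WT E2 24 h and IGF1 24 h groups and lowest in the WT E2 2 h group.

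Sequence upstream of the start was at hand in RefSeq (GRCm38.p6) for 5 of the 9 genes, and the 250 bases before the start are shown for 3 ligand genes that differed between WT E2 2 h and WT vehicle arrays, 2 of them higher (Adm and Apln) and 1 lower (Edn1). Capitals mark TGACC, the reverse complement of GGTCA, the core letters of an estrogen response element. The Adm window is chr7:110627407-110627656 on the plus strand, the Apln window chrX:48034854-48035103 on the minus strand, and the Edn1 window chr13:42301226-42301475 on the plus strand.
Adm: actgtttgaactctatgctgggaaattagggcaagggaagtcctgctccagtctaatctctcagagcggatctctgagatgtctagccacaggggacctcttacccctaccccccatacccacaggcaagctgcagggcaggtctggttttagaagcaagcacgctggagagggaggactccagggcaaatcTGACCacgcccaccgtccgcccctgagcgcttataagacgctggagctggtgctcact
Apln: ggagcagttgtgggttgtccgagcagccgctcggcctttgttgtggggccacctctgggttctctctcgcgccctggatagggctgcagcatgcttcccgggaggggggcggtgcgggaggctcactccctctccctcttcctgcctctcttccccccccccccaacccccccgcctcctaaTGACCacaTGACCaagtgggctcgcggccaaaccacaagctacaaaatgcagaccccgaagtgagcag
Edn1: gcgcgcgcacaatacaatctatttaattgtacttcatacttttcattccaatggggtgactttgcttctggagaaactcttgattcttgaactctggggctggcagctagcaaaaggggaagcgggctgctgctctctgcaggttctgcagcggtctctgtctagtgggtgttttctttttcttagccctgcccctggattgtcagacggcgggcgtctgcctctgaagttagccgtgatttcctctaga
On either strand, GGTCA occurred 1 time in the Adm window (first base at -58 from the start), 2 times in the Apln window (-68 and -60), 1 time in the Tek window (-46), and not in the windows of Edn1 or Tie1. It occurs in 34.9% of 27025 mouse promoter windows of this length. The full palindrome GGTCANNNTGACC (0.0629% of windows), the hypoxia response core ACGTG (16.6%), the AP-1 letters TGANTCA (6.87%), the cAMP response element TGACGTCA (1.62%) and TATAAA (13.0%) had no match in any of the 5 windows. A match describes letters in this window only. Angpt1, Angpt2, Aplnr and Nos3 had no entry in the promoter table.

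The WT uterus 2 h after E2 differed from vehicle in most of these genes. Of the 9 genes, 4 were higher (Adm, Angpt2, Apln and Nos3) and 3 lower (Aplnr, Edn1 and Tek) at a limma adjusted p under 0.05, against 19% of all genes called in either direction (9.84% higher, 9.18% lower). The median log2 change of the 9 genes was -0.10, beside -0.09 over all genes, as the rises and falls lay on both sides of 0. At 24 h after E2 in WT, 2 of the 9 were called, Apln and Aplnr, both higher, where 30.1% of all genes were called (16.8% higher). After IGF1 in WT, 3 were called at 2 h (Nos3 higher, Angpt2 and Edn1 lower; 17.2% of all genes, 9.54% higher and 7.64% lower) and 1 at 24 h (Aplnr higher; 4.28% of all genes, 3.32% higher).

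In KO uteri few calls were made against KO vehicle. None of the 9 was called at 2 h after E2, where limma called 0.365% of all genes and none of the 9 had an unadjusted p under 0.05. None was called at 24 h after E2, where limma called 0% of all genes; 1 of the 9 and 3735 of all genes had an unadjusted p under 0.05. None was called at 2 h after IGF1 (7.13% of all genes), where 3 of the 9 had an unadjusted p under 0.05. Aplnr alone was called at 24 h after IGF1, where 13.6% of all genes were called (9.28% higher). Leaving out 1 array at a time, the share of all genes called ranged from 0.0929% to 1.1% at 2 h after E2, from 0% to 0.126% at 24 h after E2, from 1.03% to 12.9% at 2 h after IGF1 and from 8.44% to 11.9% at 24 h after IGF1 in KO, and from 0.922% to 4.46% at 24 h after IGF1 in WT.

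**Figure D2:**
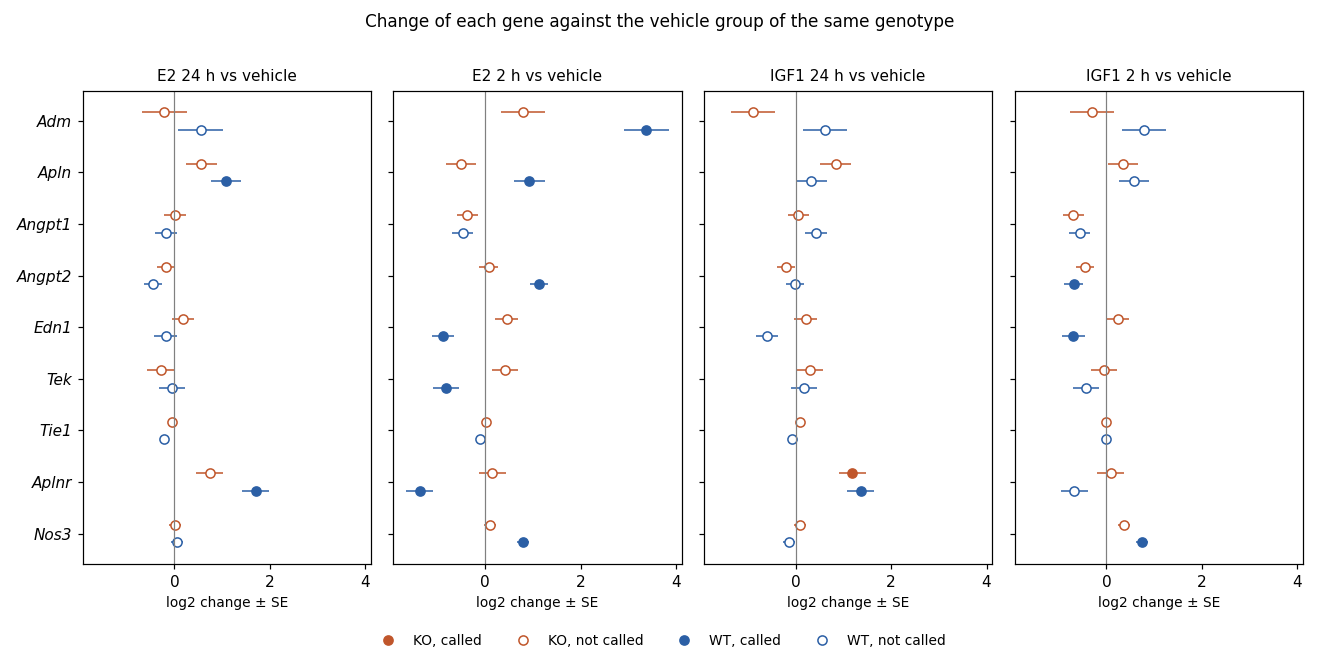
Log2 change of each gene against vehicle of the same genotype, with its standard error, for KO (orange) and WT (blue). Filled points have an adjusted p under 0.05. The E2 2 h panel holds 7 filled WT points and no filled KO point; Aplnr is the filled KO point of the IGF1 24 h panel.

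Adm showed the largest change of the 9 genes at 2 h after E2 in WT. It measured 9.46, 9.19 and 9.38 on WT E2 2 h arrays, against 5.37, 5.94 and 6.58 on WT vehicle arrays. Every WT E2 2 h array lay above every other array of the series, and 2 of the 3 vehicle arrays were above the background floor. The change was 3.38 ± 0.46 on the log2 scale (SE; 10.4-fold; limma adjusted p = 8.14e-06), and 3.09 (adjusted p = 0.000135) without WT vehicle replicate 1. In KO uteri Adm was at 6.94, 6.92 and 7.45 on E2 2 h arrays, against 5.37, 6.69 and 6.84 on vehicle arrays. These KO groups did not overlap, but the change of 0.80 ± 0.46 did not pass the test (adjusted p = 0.502). At the same time point KO E2 2 h arrays were lower than WT E2 2 h arrays (-2.24 ± 0.46; 4.73-fold; adjusted p = 0.000978).

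Adm was not called against vehicle after IGF1 or at 24 h in the fit as reported; with array weights it was called lower in KO at 24 h after IGF1 (-1.23, adjusted p = 0.0194). IGF1 2 h arrays of WT held 7.20, 6.69 and 6.37, overlapping vehicle (change 0.79, adjusted p = 0.272), and E2 exceeded IGF1 at 2 h in WT by 2.59 ± 0.46 (6.04-fold; adjusted p = 0.000552). By 24 h after E2 the WT arrays held 6.03, 6.76 and 6.74, all below the 2 h arrays (-2.84; 7.14-fold; adjusted p = 4.15e-05) and overlapping vehicle. Adm averaged 5.40 ± 0.33 on KO IGF1 24 h arrays (SD, n = 3), all 3 at or under the floor, and 6.58 ± 0.43 on WT IGF1 24 h arrays, at least 1.57-fold lower in KO without a call (adjusted p = 0.215). Among the 10 group means only WT E2 2 h stood clear of its neighbour, and each of the other groups overlapped the next lower one.

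Angpt2, the Tek ligand that loosens vessels, moved with E2 and IGF1 in opposite directions at 2 h. Its level was 8.94, 8.96 and 8.77 on WT E2 2 h arrays, against 7.44, 7.85 and 8.00 on WT vehicle arrays. All 3 E2 2 h arrays were above all other arrays of the series. The change was 1.13 ± 0.19 (2.18-fold; adjusted p = 0.000132), and 0.96 (adjusted p = 0.00172) without WT vehicle replicate 1. WT IGF1 2 h arrays held 7.27, 6.80 and 7.16 and all lay below vehicle, a change of -0.69 ± 0.19 (1.61-fold; adjusted p = 0.0144). This call was lost without WT vehicle replicate 3 (-0.57, adjusted p = 0.0742), without WT IGF1 2 h replicate 2 (-0.55, adjusted p = 0.0973), with arrays centred on their medians (-0.58, adjusted p = 0.0728) and in a fit of the compared groups alone (-0.69, adjusted p = 0.0744).

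Set directly against each other at 2 h in WT, E2 arrays exceeded IGF1 arrays by 1.81 ± 0.19 for Angpt2 (3.52-fold; adjusted p = 3.85e-07). Adm and Angpt2 were the 2 genes called in this comparison, where 5.57% of all genes were called (2.8% higher). In KO uteri Angpt2 was at 7.55, 7.77 and 7.77 on E2 2 h arrays, 7.03, 6.75 and 7.72 on IGF1 2 h arrays and 7.46, 7.44 and 7.95 on vehicle arrays. E2 2 h overlapped vehicle, and so did IGF1 2 h, through its replicate 3. KO E2 2 h arrays were all below WT E2 2 h arrays (-1.20 ± 0.19; 2.29-fold; adjusted p = 6.91e-05). At 24 h after E2 in WT, Angpt2 held 7.49, 7.19 and 7.28, all below the 2 h arrays (-1.57; 2.98-fold; adjusted p = 9e-07). Against vehicle that 24 h level was -0.45 (adjusted p = 0.0844), and -0.61 (adjusted p = 0.0338) without WT vehicle replicate 1.

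After IGF1 in WT, Angpt2 held 7.52, 7.90 and 7.84 at 24 h, all above the 2 h arrays (0.68 ± 0.19; 1.60-fold; adjusted p = 0.0187) and overlapping vehicle. That call was lost without WT IGF1 24 h replicate 2 (0.60, adjusted p = 0.0814) or 3 (0.63, adjusted p = 0.065), or WT IGF1 2 h replicate 2 (0.54, adjusted p = 0.12), and with arrays centred on their medians (0.62, adjusted p = 0.0621). In KO the change at 2 h after IGF1 was -0.45 (adjusted p = 0.175), and -0.73 (adjusted p = 0.00674) without KO IGF1 2 h replicate 3. Among the 10 group means of Angpt2 only WT E2 2 h stood clear of the next.

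Angpt1, the Tek agonist, was not called against vehicle in any group in the fit as reported. It was at 7.67, 7.72 and 8.04 on WT IGF1 24 h arrays, against 6.66, 6.95 and 6.88 on WT IGF1 2 h arrays. The groups did not overlap, and the later one was 0.98 ± 0.23 higher (1.98-fold; adjusted p = 0.00409). KO IGF1 24 h arrays held 7.52, 7.36 and 7.55, against 6.46, 6.32 and 7.42 on KO IGF1 2 h arrays, where replicate 3 lay within the later group. That change was 0.74 ± 0.23 (1.68-fold; adjusted p = 0.0398), and 1.09 (adjusted p = 0.000928) without KO IGF1 2 h replicate 3. It was lost in leaving out KO IGF1 2 h replicate 1 (0.61, adjusted p = 0.167) or 2 (0.54, adjusted p = 0.24), or any of the KO IGF1 24 h arrays (adjusted p 0.0697 to 0.123), with arrays centred on their medians (0.73, adjusted p = 0.0701), with quantile normalization (0.69, adjusted p = 0.0698) and in a fit of the compared groups alone (0.74, adjusted p = 0.254).

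After E2, Angpt1 averaged 7.22 ± 0.08 on WT E2 24 h arrays and 6.92 ± 0.25 on WT E2 2 h arrays (SD, n = 3 each), beside 7.39 ± 0.44 on WT vehicle arrays. Without WT vehicle replicate 1, whose Angpt1 level of 6.91 was the lowest of its group, Angpt1 was called lower at 2 h after E2 (-0.71, adjusted p = 0.0377; -0.47 and 0.171 with all arrays) and after IGF1 (-0.80, adjusted p = 0.0213; -0.56 and 0.0936 with all arrays). Array weights gave both calls too (adjusted p = 0.00158 and 0.000523). Likewise, without KO IGF1 2 h replicate 3 the KO change at 2 h after IGF1 was -1.03 (adjusted p = 0.00101), beside -0.69 (adjusted p = 0.0667) with it. Among the 10 group means of Angpt1, WT IGF1 24 h was the highest and did not overlap the next, and the remaining neighbours overlapped.

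Apelin (Apln) was higher after E2 in WT at both times. It was at 7.51, 7.81 and 7.29 on WT E2 24 h arrays and 7.44, 6.93 and 7.80 on WT E2 2 h arrays, against 6.95, 6.14 and 6.29 on WT vehicle arrays. The 24 h arrays all lay above vehicle, whereas 1 of the 2 h arrays lay just under the highest vehicle array. The changes were 1.08 ± 0.32 at 24 h (2.11-fold; adjusted p = 0.0127) and 0.93 ± 0.32 at 2 h (1.91-fold; adjusted p = 0.0425). Without WT vehicle replicate 1, the highest of its group, they were 1.32 (adjusted p = 0.00637) and 1.18 (adjusted p = 0.0203). The call at 24 h was lost without WT vehicle replicate 2 (0.92, adjusted p = 0.0539) or WT E2 24 h replicate 2 (0.94, adjusted p = 0.0598). The call at 2 h was lost without WT vehicle replicate 2 (0.77, adjusted p = 0.143) or 3 (0.84, adjusted p = 0.12), or WT E2 2 h replicate 1 (0.90, adjusted p = 0.111) or 3 (0.73, adjusted p = 0.199), and in a fit of the compared groups alone (0.93, adjusted p = 0.072).

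In KO uteri the level of Apln at 2 h after E2 was the lowest group mean of the series. Its arrays held 5.94, 5.93 and 6.24, close to the background floor and above it on 2 of 3 arrays. KO vehicle arrays held 7.02, 6.14 and 6.45. These groups overlapped, and the change of -0.50 did not pass (adjusted p = 0.543). KO E2 2 h arrays were all below WT E2 2 h arrays, a difference of -1.35 ± 0.32 (2.55-fold; adjusted p = 0.00335). At 24 h after E2 the KO arrays held 7.10, 7.69 and 6.51, which was 1.06 ± 0.32 above the 2 h arrays (2.09-fold; adjusted p = 0.0409), the 1 call among the 9 genes in that comparison (9.42% of all genes, 6.08% higher). It was lost without KO E2 24 h replicate 2 (0.77, adjusted p = 0.253) or 1 (1.06, adjusted p = 0.0584), and without KO E2 2 h replicate 1 (1.02, adjusted p = 0.111) or 2 (1.01, adjusted p = 0.12). With all arrays it was also lost when arrays were centred on their medians (0.93, adjusted p = 0.0671), with quantile normalization (1.05, adjusted p = 0.0633), with array weights (0.89, adjusted p = 0.0804) and in a fit of the compared groups alone (1.06, adjusted p = 0.18). The 2839 genes behind that 9.42% became 99 without KO E2 24 h replicate 2, 396 and 305 without KO E2 2 h replicates 1 and 2, and 4 in the fit of the compared groups alone. After IGF1 no Apln change against vehicle was called, the nearest being KO at 24 h with 7.21, 7.36 and 7.55, all above vehicle (0.84, adjusted p = 0.0866; 1.08, adjusted p = 0.0455 without KO vehicle replicate 1). Every group mean of Apln overlapped the next one in order.

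Endothelin 1 (Edn1), the constrictor peptide, fell in WT at 2 h after either agent. It was at 6.47, 6.84 and 6.87 on WT E2 2 h arrays and 6.60, 7.01 and 7.13 on WT IGF1 2 h arrays, against 7.84, 7.45 and 7.52 on WT vehicle arrays. All 6 treated arrays were below all 3 vehicle arrays. The changes were -0.88 ± 0.23 for E2 (1.84-fold; adjusted p = 0.00826) and -0.69 ± 0.23 for IGF1 (1.62-fold; adjusted p = 0.0424). Without WT vehicle replicate 1, the highest of its group, they were -0.76 (adjusted p = 0.0481) and -0.58 (adjusted p = 0.171). The IGF1 call was lost there, and also without WT vehicle replicate 3 (-0.74, adjusted p = 0.0639), WT IGF1 2 h replicate 1 (-0.54, adjusted p = 0.194) or replicate 2 (-0.74, adjusted p = 0.0726), and the E2 call without WT E2 2 h replicate 1 (-0.75, adjusted p = 0.0566). With all arrays the IGF1 call was lost when arrays were centred on their medians (-0.58, adjusted p = 0.117), with quantile normalization (-0.68, adjusted p = 0.0583) and in a fit of the compared groups alone (-0.69, adjusted p = 0.058). E2 and IGF1 arrays overlapped at 2 h (difference -0.19, adjusted p = 0.863).

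In KO uteri Edn1 measured 7.46, 7.51 and 7.84 on E2 2 h arrays and 7.37, 7.06 and 7.75 on IGF1 2 h arrays, against 6.82, 7.30 and 7.33 on vehicle arrays. The KO E2 2 h arrays all lay above KO vehicle, without a call (0.45, adjusted p = 0.448). They also lay above all WT E2 2 h arrays, by 0.88 ± 0.23 (1.84-fold; adjusted p = 0.00893), a call lost without WT E2 2 h replicate 1 (0.75, adjusted p = 0.0611) or KO E2 2 h replicate 3 (0.76, adjusted p = 0.0522). In WT the 24 h arrays after E2 held 7.63, 7.48 and 7.16, 0.70 above the 2 h arrays (1.62-fold; adjusted p = 0.0279). That call was lost without WT E2 24 h replicate 1 (0.59, adjusted p = 0.113) or 2 (0.67, adjusted p = 0.0786) or WT E2 2 h replicate 1 (0.57, adjusted p = 0.134), and with quantile normalization (0.55, adjusted p = 0.105). Every group mean of Edn1 overlapped the next one in order.

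Of the receptors, Aplnr varied most, over a range of 3.07 between its lowest and highest group means. At 24 h it was at 9.59, 8.88 and 9.57 on WT E2 arrays and 9.05, 8.95 and 9.04 on WT IGF1 arrays, against 7.50, 7.56 and 7.88 on WT vehicle arrays. All 6 treated arrays were above vehicle and above all KO arrays. The changes were 1.70 ± 0.28 for E2 (3.25-fold; adjusted p = 5.51e-05) and 1.36 ± 0.28 for IGF1 (2.57-fold; adjusted p = 0.00749), and 1.63 (adjusted p = 0.000499) and 1.29 (adjusted p = 0.0395) without WT vehicle replicate 1. The difference of E2 over IGF1 at 24 h was 0.34 (adjusted p = 0.557). None of the 9 genes was called in that comparison by limma, 3 had an unadjusted p under 0.05, and 10.1% of all genes were called.

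The apelin receptor gene stood at its lowest at 2 h after E2, with 6.25, 6.40 and 6.19 in WT, below every vehicle array (-1.37 ± 0.28; 2.58-fold; adjusted p = 0.000877) and every other array of the series. Without WT vehicle replicate 1 the change was -1.44 (adjusted p = 0.0023). IGF1 2 h arrays of WT held 7.20, 6.79 and 6.93, also all below vehicle but without a call (-0.68, adjusted p = 0.104); array weights (-0.77, adjusted p = 0.00493) and a fit of the compared groups alone (-0.68, adjusted p = 0.0454) gave one. Aplnr was therefore below vehicle at 2 h and above it at 24 h after E2 in WT, and the 24 h arrays exceeded the 2 h arrays by 3.07 ± 0.28 (8.40-fold; adjusted p = 8.88e-09). The same time comparison after IGF1 in WT gave 2.04 ± 0.28 (4.11-fold; adjusted p = 3.33e-05). The time comparisons called 6 of the 9 genes after E2 in WT, 3 in each direction (27.4% of all genes, 17% higher and 10.4% lower), and 4 after IGF1 in WT, 3 higher and 1 lower (14.5% of all genes, 7.94% higher and 6.57% lower).

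Aplnr also rose in KO uteri, at 24 h after IGF1. KO IGF1 24 h arrays held 8.26, 8.42 and 8.11, against 7.38, 6.89 and 6.95 on KO vehicle arrays and 7.14, 7.20 and 7.14 on KO IGF1 2 h arrays. The later group lay above both of the others. It exceeded vehicle by 1.19 ± 0.28 (2.28-fold; adjusted p = 0.00542) and the 2 h group by 1.10 ± 0.28 (2.14-fold; adjusted p = 0.0143), and the call against the 2 h group was lost without KO IGF1 24 h replicate 2 (1.02, adjusted p = 0.0603). Aplnr and Angpt1 were the 2 genes called in that KO time comparison (8.98% of all genes, 5.68% higher). KO E2 24 h arrays, with 7.91, 8.30 and 7.23, overlapped KO vehicle (0.74, adjusted p = 0.299) and were all below WT E2 24 h arrays (-1.53 ± 0.28; 2.89-fold; adjusted p = 0.000134), the 1 call among the 9 genes there (47% of all genes, 19.3% lower).

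KO E2 2 h arrays held Aplnr levels of 6.83, 8.16 and 6.68, all above WT E2 2 h arrays (0.95 ± 0.28; 1.93-fold; adjusted p = 0.0186). Replicate 2 stood apart in this group, and without it the difference was 0.48 (adjusted p = 0.21); the call was also lost without WT E2 2 h replicate 1 (0.93, adjusted p = 0.058) or 3 (0.90, adjusted p = 0.0663), and in a fit of the compared groups alone (0.95, adjusted p = 0.143). Against these KO 2 h arrays the KO E2 24 h arrays were called higher only without KO E2 2 h replicate 2 (1.06, adjusted p = 0.0323) or KO E2 24 h replicate 3 (0.88, adjusted p = 0.0475). In order of group means, WT E2 24 h and WT IGF1 24 h overlapped and stood clear of the rest, WT E2 2 h stood clear at the low end, and the other neighbours overlapped. Over 9 stromal markers, which include Col3a1, the mean level per array was 11.39 to 11.65 in WT E2 24 h, 11.35 to 11.70 in WT IGF1 24 h, 10.17 to 10.31 in WT E2 2 h and 10.81 to 11.12 in WT vehicle arrays. All 9 stromal markers had a group mean above the mean floor of the group in every group, though not each on every array. Against vehicle in WT, 2 were called higher and 1 lower at 24 h after E2, 2 higher and none lower at 24 h after IGF1, and 2 higher and 6 lower at 2 h after E2. The shares over all genes were 30.1% called (16.8% higher) at 24 h after E2 and 4.28% (3.32% higher) at 24 h after IGF1. At 2 h after E2 they were 9.84% higher and 9.18% lower. In KO the stromal list lay at 9.86 to 10.35 on E2 24 h arrays, beside 10.16 to 10.48 on vehicle arrays. On KO IGF1 24 h arrays it lay at 10.89 to 11.20, with 5 called higher and 1 lower than vehicle. Of all genes, 13.6% were called there (9.28% higher). Mean Aplnr was 7.82, 8.26 and 7.07 on KO E2 24 h, IGF1 24 h and vehicle arrays. The part of the stromal markers in the Aplnr result was not tested. The blood endothelial list had 15 measured markers, with a mean level of 7.96 to 8.07 on WT E2 2 h arrays and 7.88 to 8.21 on WT vehicle arrays, where 2 were called higher and 3 lower. A pericyte and smooth muscle list of 12 genes lay at 10.44 to 10.51 and 10.43 to 11.05 on the same arrays (none higher, 2 lower). In that comparison 9.84% of all genes were called higher and 9.18% lower. An epithelial list of 10 genes lay at 11.70 to 11.72 on WT E2 24 h arrays and 8.97 to 9.26 on WT vehicle arrays. Of these 10, 9 were called higher, beside 16.8% of all genes. The part of the epithelial list in the Apln and Aplnr levels at 24 h was not tested.

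Tek, the receptor of both angiopoietins, fell at 2 h after E2 in WT, with 7.89, 8.00 and 7.93, against 8.59, 8.86 and 8.84 on vehicle arrays. The groups did not overlap. The change was -0.83 ± 0.27 (1.77-fold; adjusted p = 0.0343), and -0.91 (adjusted p = 0.0456) without WT vehicle replicate 1. It lost its call with arrays centred on their medians (-0.71, adjusted p = 0.108) and without WT vehicle replicate 2 (-0.78, adjusted p = 0.0878) or 3 (-0.79, adjusted p = 0.0883), or any of the WT E2 2 h arrays (adjusted p 0.0666 to 0.0964). WT E2 24 h arrays held 8.71, 8.67 and 8.77, within the vehicle range and 0.78 above the 2 h arrays (1.72-fold; adjusted p = 0.0356). That call was lost without any 1 of these 6 arrays (0.75 to 0.81, adjusted p 0.064 to 0.0925), with arrays centred on their medians (0.77, adjusted p = 0.0548) and with quantile normalization (0.54, adjusted p = 0.161).

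In KO uteri Tek was at 8.58, 9.57 and 8.72 on E2 2 h arrays, against 7.73, 8.64 and 9.21 on KO vehicle arrays, which were widely spread and enclosed most of the E2 values. KO E2 2 h arrays were all above WT E2 2 h arrays (1.02 ± 0.27; 2.02-fold; adjusted p = 0.00946), and without KO E2 2 h replicate 2, the highest, the difference was 0.71 (adjusted p = 0.0937). No IGF1 group of Tek was called against vehicle, with 8.79, 9.14 and 8.86 on WT IGF1 24 h arrays and 8.18, 8.73 and 8.09 on WT IGF1 2 h arrays (0.16 and -0.43, adjusted p = 0.767 and 0.312). Every group mean of Tek overlapped the next one in order. Tie1, the partner receptor, was the flattest of the 9 genes: its 30 arrays lay between 6.82 and 7.23, its group means between 6.88 and 7.10, and none of its comparisons was called in the fit as reported. Its change at 24 h after E2 in WT passed with quantile normalization (-0.21, adjusted p = 0.0456), with dim genes removed (-0.21, adjusted p = 0.0468) and without WT vehicle replicate 3 (-0.26, adjusted p = 0.0464). Tie1 also passed under 1 setting each in E2 24 h against 2 h in WT with quantile normalization (-0.20, adjusted p = 0.0491) and in E2 against IGF1 at 24 h in KO with arrays centred on their medians (-0.25, adjusted p = 0.0347).

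Nos3, which makes nitric oxide in endothelium, rose at 2 h after either agent in WT. It was at 7.13, 7.11 and 7.01 on WT E2 2 h arrays and 6.99, 7.20 and 6.91 on WT IGF1 2 h arrays, against 6.52, 6.19 and 6.17 on WT vehicle arrays. The 6 treated arrays were all above vehicle, and E2 and IGF1 overlapped (difference 0.05, adjusted p = 0.955). The changes were 0.79 ± 0.13 for E2 (1.73-fold; adjusted p = 6.24e-05) and 0.74 ± 0.13 for IGF1 (1.67-fold; adjusted p = 0.000219). By 24 h the levels were 6.24, 6.50 and 6.33 after E2 and 6.20, 6.06 and 6.18 after IGF1, all below the 2 h arrays of the same agent. Those changes were -0.73 ± 0.13 for E2 (1.66-fold; adjusted p = 9.24e-05) and -0.88 ± 0.13 for IGF1 (1.85-fold; adjusted p = 4.72e-05).

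In KO uteri Nos3 was at 6.31, 6.44 and 6.41 on E2 2 h arrays, against 6.37, 6.32 and 6.19 on vehicle arrays (0.10, adjusted p = 0.781), and lay below all WT E2 2 h arrays (-0.70 ± 0.13; 1.62-fold; adjusted p = 0.00027). KO IGF1 2 h arrays held 6.67, 6.96 and 6.32. Replicates 1 and 2 lay above all KO vehicle arrays and replicate 3 within them, and the change of 0.36 ± 0.13 had an adjusted p of 0.0885. Without replicate 3 it was 0.53 (adjusted p = 0.00448), and with all arrays it passed when they were centred on their medians (0.41, adjusted p = 0.0293), with quantile normalization (0.41, adjusted p = 0.0285) and with array weights (0.42, adjusted p = 0.0423). The difference of KO from WT at 2 h after IGF1 was -0.38 (adjusted p = 0.143), and -0.54 (adjusted p = 0.0266) without KO IGF1 2 h replicate 2. KO IGF1 24 h arrays held 6.38, 6.35 and 6.39, below the 2 h arrays by a called margin only without KO IGF1 2 h replicate 3 (-0.44, adjusted p = 0.0198). The 2 WT groups at 2 h had the highest Nos3 means, 7.08 ± 0.06 for E2 and 7.03 ± 0.15 for IGF1 (SD, n = 3 each), and every group mean overlapped the next one in order.

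The genotypes were also compared directly. Between KO and WT vehicle arrays none of the 9 genes was called by limma, none had an unadjusted p under 0.05, and 2.92% of all genes were called. KO differed from WT at 2 h after E2 in 7 of the 9 genes: Tek, Aplnr and Edn1 were higher and Adm, Apln, Angpt2 and Nos3 lower in KO, where 17.9% of all genes were called (9.2% higher, 8.67% lower). At 2 h after IGF1 none was called (1.95% of all genes; 1 of the 9 with an unadjusted p under 0.05), nor at 24 h after IGF1 (2.86% of all genes; 2 of the 9).

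The change from vehicle at 2 h after E2 itself differed between the genotypes. The interaction, the KO change minus the WT change, passed for 6 of the 9 genes, 3 in each direction (8% of all genes, 3.61% higher and 4.39% lower): Adm -2.58 ± 0.66 (adjusted p = 0.0138), Angpt2 -1.05 ± 0.27 (adjusted p = 0.0165), Nos3 -0.69 ± 0.18 (adjusted p = 0.0159), Edn1 1.33 ± 0.33 (adjusted p = 0.0118), Aplnr 1.52 ± 0.40 (adjusted p = 0.0168) and Tek 1.25 ± 0.39 (adjusted p = 0.0455). Apln lay just outside (-1.43 ± 0.45, adjusted p = 0.0519) and passed without WT vehicle replicate 1 (-1.67, adjusted p = 0.0256), KO vehicle replicate 2 (-1.63, adjusted p = 0.0405) or WT E2 2 h replicate 2 (-1.66, adjusted p = 0.0313). With all arrays it passed when they were centred on their medians (-1.49, adjusted p = 0.0342), with quantile normalization (-1.50, adjusted p = 0.0416), with dim genes removed (-1.43, adjusted p = 0.0352) and with array weights (-1.53, adjusted p = 0.00613). Without WT vehicle replicate 1 the 6 calls remained, with adjusted p from 0.00503 for Nos3 to 0.0481 for Angpt2. The Angpt2 interaction was lost without KO vehicle replicate 3 (-0.88, adjusted p = 0.0536), and that of Tek without KO vehicle replicate 1 (0.85, adjusted p = 0.152) or 2 (1.31, adjusted p = 0.0645), WT vehicle replicate 2 (1.20, adjusted p = 0.0892) or 3 (1.22, adjusted p = 0.0913), KO E2 2 h replicate 2 (0.94, adjusted p = 0.155), or any of the WT E2 2 h arrays (adjusted p 0.0689 to 0.0957). The Tek interaction was lost too with arrays centred on their medians (1.19, adjusted p = 0.0898), with quantile normalization (1.20, adjusted p = 0.059) and in a fit of the compared groups alone (1.25, adjusted p = 0.166), and that fit also lost Aplnr (1.52, adjusted p = 0.0726).

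The interaction passed for none of the 9 genes at 24 h after E2, where limma called 22.1% of all genes and 1 of the 9 had an unadjusted p under 0.05. That gene was Aplnr (-0.96 ± 0.40, adjusted p = 0.0821), which passed without WT E2 24 h replicate 2 (-1.19, adjusted p = 0.0436) or KO E2 24 h replicate 2 (-1.20, adjusted p = 0.045), with arrays centred on their medians (-1.15, adjusted p = 0.043) and with array weights (-0.94, adjusted p = 0.0423). Nor did it pass after IGF1, at 2 h (0.0133% of all genes) or 24 h (0.00664% of all genes), with 2 of the 9 at an unadjusted p under 0.05 each time. E2 against IGF1 in KO uteri called none of the 9 at 2 h (3.04% of all genes, and 0.113% to 9.69% with 1 array left out; 4 of the 9 unadjusted) or 24 h (21.5% of all genes; 1 of the 9 unadjusted). Without KO IGF1 2 h replicate 3, 5 were called at 2 h: Adm (1.77, adjusted p = 0.00736), Angpt2 (0.81, adjusted p = 0.00389) and Angpt1 (0.67, adjusted p = 0.0373) higher with E2, and Apln (-1.12, adjusted p = 0.0382) and Nos3 (-0.43, adjusted p = 0.0246) lower.

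**Figure D3:**
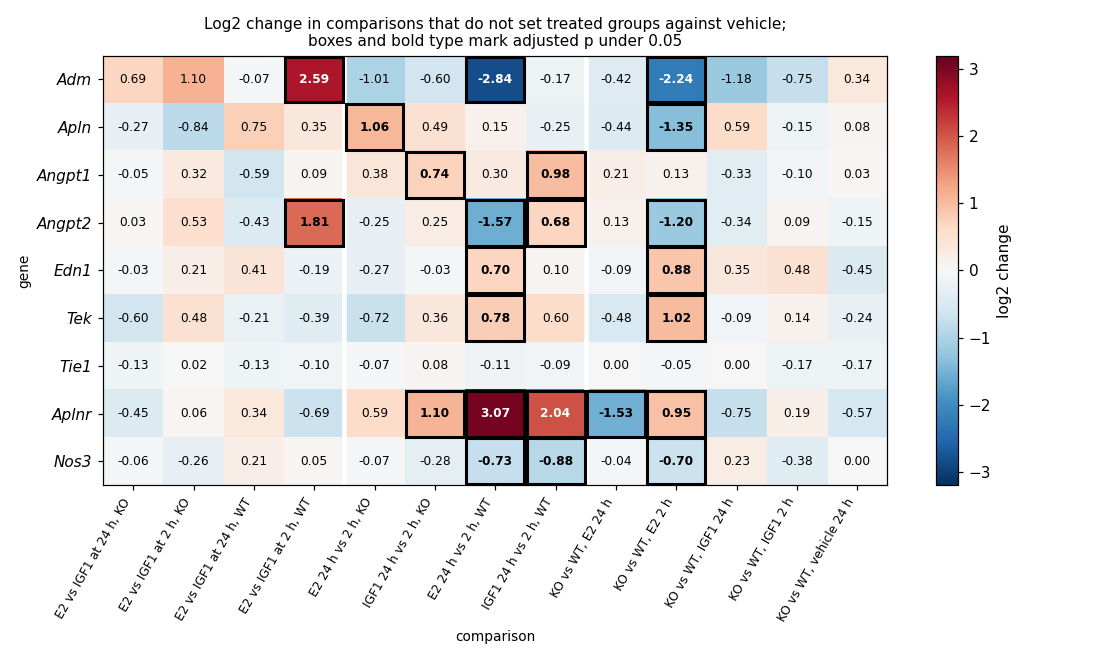
Log2 change of the 9 genes (rows) in the 13 comparisons that do not set a treated group against vehicle (columns). Colour and printed numbers give the log2 change, and boxes with bold type mark an adjusted p under 0.05. The KO vs WT column at E2 2 h has 7 boxes and the KO vs WT vehicle column none.

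The rest of the adrenomedullin system was described from a list of 8 measured genes. In WT at 2 h after E2, 1 of the 8 rose and 2 fell (median -0.29, beside -0.09 over all genes, of which 9.84% rose and 9.18% fell). Ramp3, which turns Calcrl into an adrenomedullin receptor, was at 10.41, 10.40 and 10.51 on WT E2 2 h arrays, against 7.51, 7.21 and 7.29 on WT vehicle arrays. All 3 E2 arrays were far above vehicle (3.10 ± 0.21, adjusted p = 6.97e-11). Calcrl, the receptor itself, fell by 1.10 ± 0.25 on the log2 scale (adjusted p = 0.00209), with 9.88, 9.93 and 9.73 on E2 2 h arrays, against 10.47, 11.24 and 11.12 on vehicle arrays. Pam, which amidates peptide hormones including adrenomedullin, fell by 0.84 ± 0.23 (adjusted p = 0.0112).

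In KO uteri Ramp3 held 6.53, 6.04 and 6.50 on E2 2 h arrays, against 6.88, 6.73 and 6.17 on vehicle arrays, which overlapped. KO lay below WT at 2 h after E2 for Ramp3 (-4.08 ± 0.21; adjusted p = 3.81e-13), and the interaction was -3.34 ± 0.29 (adjusted p = 3.52e-08). Ramp2, the other partner of Calcrl for adrenomedullin, followed IGF1 at 2 h in WT. It was at 8.74, 8.45 and 9.23 on WT IGF1 2 h arrays, against 7.30, 7.35 and 7.54 on WT vehicle arrays (1.41 ± 0.23, adjusted p = 0.000156), while WT E2 2 h arrays held 7.44, 7.31 and 7.33 within or near the vehicle range. E2 against IGF1 at 2 h in WT thus gave 3.08 for Ramp3 (adjusted p = 1.45e-10) and -1.44 for Ramp2 (adjusted p = 0.000162). Ramp2 also rose after IGF1 in KO, by 1.15 ± 0.23 at 24 h (adjusted p = 0.00168) and 0.79 ± 0.23 at 2 h (adjusted p = 0.0391), and at 24 h after E2 in WT by 0.85 ± 0.23 (adjusted p = 0.00733). In a fit of the compared groups alone, 0 genes were called at 2 h after IGF1 in KO, so the Ramp2 call there was lost.

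**Figure D4:**
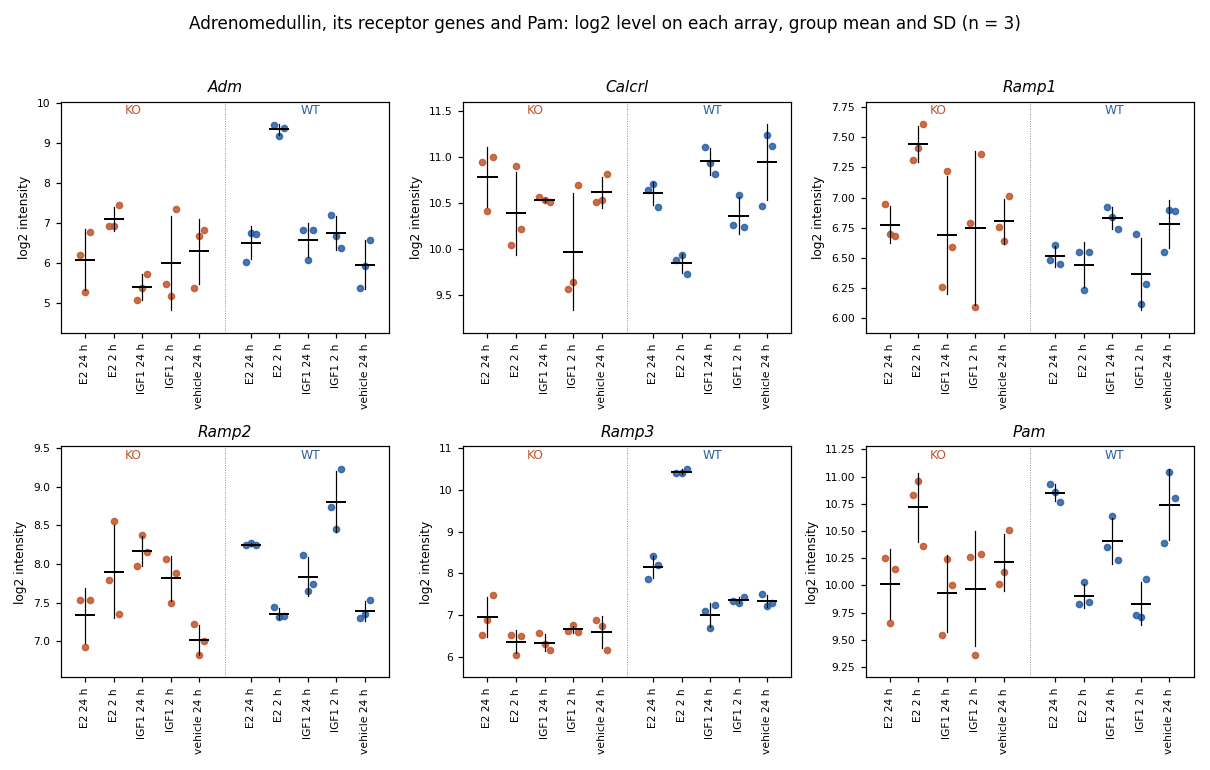
Log2 intensity of Adm, Calcrl, Ramp1, Ramp2, Ramp3 and Pam on all 30 arrays, with group mean and SD (n = 3). Adm and Ramp3 stand highest on WT E2 2 h arrays and Ramp2 on WT IGF1 2 h arrays; each panel has its own log2 axis.

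The other pathway lists held calls in both directions at 2 h after E2 in WT, where 9.84% of all genes were called higher and 9.18% lower. Of 8 genes around angiopoietin and Tie signalling, 3 were called higher and 1 lower (median 0.18, beside -0.09 over all genes). Foxo1, a transcription factor that drives Angpt2 in endothelium, rose by 0.77 ± 0.17 (adjusted p = 0.00198) and Klf2, a flow-responsive endothelial factor, by 1.07 ± 0.26 (adjusted p = 0.00388), while the adaptor gene Grb14 fell by 0.85 ± 0.21 (adjusted p = 0.00526; above the floor on 2 of 3 E2 2 h arrays). The ligand gene Angpt4 also passed (0.34 ± 0.11, adjusted p = 0.0392), but its means of 5.45 on WT E2 2 h arrays and 5.12 on WT vehicle arrays were under the lowest floor. Of 5 measured genes around apelin signalling, 3 rose (median 0.45): the G-protein genes Gnai2 (1.23 ± 0.34, adjusted p = 0.0101) and Gnai3 (0.67 ± 0.23, adjusted p = 0.0391), and the protease gene Furin (0.45 ± 0.11, adjusted p = 0.00399). Of 7 around endothelin, 1 rose, the converting enzyme gene Ece2 (0.51 ± 0.15, adjusted p = 0.0147; list median -0.07).

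Of 11 measured genes of nitric oxide synthesis and signalling, 2 rose and 2 fell at 2 h after E2 in WT (median -0.04). Arg2, which competes with Nos3 for arginine, rose by 2.01 ± 0.21 (adjusted p = 1.31e-07; above the floor on 2 of 3 vehicle arrays). Gch1, which makes a cofactor of nitric oxide synthases, averaged 6.65 on WT E2 2 h arrays and was above the floor on none of the 3 WT vehicle arrays (mean 5.92), at least 1.45-fold higher after E2 (adjusted p = 0.00663). Gucy1b1, a subunit of the nitric oxide receptor, fell by 1.39 ± 0.19 (adjusted p = 9.83e-06) and Pde5a, which breaks down its product cGMP, by 1.26 ± 0.34 (adjusted p = 0.00892). At 2 h after IGF1 in WT, 2 of the 11 rose and 3 fell (median 0.16, beside -0.08 over all genes, of which 9.54% rose and 7.64% fell), with Pde5a at -1.69 ± 0.34 (adjusted p = 0.000898), Arg2 at 0.94 ± 0.21 (adjusted p = 0.0021) and Prkg1, the cGMP-dependent kinase, at -0.77 ± 0.25 (adjusted p = 0.0327). Gch1 averaged 6.79 on those IGF1 arrays, at least 1.59-fold above vehicle (adjusted p = 0.00189). At 24 h after E2 in WT, 3 rose and 2 fell (median 0.16, beside -0.10 over all genes, of which 16.8% rose and 13.3% fell), led by Pde5a (-2.07 ± 0.34, adjusted p = 4.61e-05), Nostrin, which moves Nos3 off the membrane (1.65 ± 0.19, adjusted p = 4.1e-07; above the floor on 2 of 3 vehicle arrays), and Prkg1 (-1.44 ± 0.25, adjusted p = 1e-04).

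Hypoxia-responsive genes were listed because Adm and several of these ligands are known to respond to low oxygen. Of 17 measured, 6 rose and 1 fell at 2 h after E2 in WT (median 0.59, beside -0.09 over all genes, of which 9.84% rose and 9.18% fell). The hypoxia-inducible factor genes Epas1 (2.47 ± 0.34, adjusted p = 7.33e-06) and Hif1a (1.53 ± 0.19, adjusted p = 2.68e-06) rose, as did Bhlhe40, a repressor of the same response (2.25 ± 0.24, adjusted p = 2.1e-07), and the glucose carrier gene Slc2a1 (1.26 ± 0.30, adjusted p = 0.00297). After IGF1, 7 rose and 1 fell at 2 h in WT (median 0.67, beside -0.08 over all genes, of which 9.54% rose and 7.64% fell). In KO 6 rose and 1 fell at that time (median 0.67, beside -0.04 over all genes, of which 4.19% rose and 2.95% fell). The 2150 genes behind these KO shares became 310 without KO IGF1 2 h replicate 1 and 3900 without replicate 3. A fit of the compared groups alone called 0 genes, so the KO list calls were lost there. The oxygen sensor gene Egln1 (1.47 ± 0.31, adjusted p = 0.00136) and P4ha1, a collagen-modifying enzyme (1.40 ± 0.18, adjusted p = 1.24e-05), had the largest changes in WT. The largest in KO were of the glycolysis regulator Pfkfb3, with means of 9.44 on IGF1 2 h arrays and 7.94 on vehicle arrays (adjusted p = 0.00639), and of P4ha1 (1.13 ± 0.18, adjusted p = 0.000789). At 24 h after E2 in WT, 7 rose and 4 fell (median 0.31, beside -0.10; 16.8% of all genes rose and 13.3% fell), with the glycolysis genes Pgk1 (3.09 ± 0.33, adjusted p = 1.87e-07) and Ldha (1.81 ± 0.23, adjusted p = 2.43e-06) ahead.

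At 24 h after E2 in WT, where 16.8% of all genes were called higher and 13.3% lower, the smaller lists gave 1 lower of 8 for angiopoietin and Tie (Grb14, -0.64 ± 0.21, adjusted p = 0.0256; median -0.34, beside -0.10 over all genes), 3 higher of 5 for apelin (median 0.32) and 2 lower of 7 for endothelin (median -0.24). The G-protein genes Gnai2 (1.41 ± 0.34, adjusted p = 0.00262) and Gnai3 (1.05 ± 0.23, adjusted p = 0.00104) again led the apelin list. The 2 endothelin calls were the ligand genes Edn2 and Edn3, and neither was above the floor on any WT E2 24 h array; on WT vehicle arrays Edn2 was above it on none and Edn3 on 1 of 3 (mean 5.88; at least 1.08-fold lower after E2, adjusted p = 0.00534). The adrenomedullin list had 3 higher and 1 lower of 8 (median -0.08). The lower one was Calcb, which was above the floor on no array of either group, and the higher ones included Crcp, a component of the calcitonin gene-related peptide receptor (1.24 ± 0.27, adjusted p = 0.00113), and Ramp3 (0.82 ± 0.21, adjusted p = 0.00399).

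In KO uteri few list genes were called after E2. Against vehicle at 2 h, 1 gene was called in the angiopoietin and Tie list (Grb14, -0.94 ± 0.21, adjusted p = 0.0484), 1 in the hypoxia list (P4ha1, with means of 8.87 on E2 2 h arrays and 7.86 on vehicle arrays, adjusted p = 0.00865) and none in the other 4, and at 24 h none in any list, where 0.365% and 0% of all genes were called. After IGF1 at 24 h, where 9.28% of all genes were called higher and 4.35% lower, KO uteri had 2 of 5 apelin genes higher, led by Gnai2 (1.33 ± 0.34, adjusted p = 0.0092), 3 of 11 nitric oxide genes lower, led by Pde5a (-1.19 ± 0.34, adjusted p = 0.0193) and Prkg1 (-1.17 ± 0.25, adjusted p = 0.00247), and 4 of 17 hypoxia genes higher and 2 lower. The glycolysis gene Pgk1 was the highest of those (1.88 ± 0.33, adjusted p = 0.00053). Grb14 was lower than KO vehicle after IGF1 as well as at 2 h after E2. It averaged 7.36 on KO IGF1 24 h arrays and 6.98 on KO IGF1 2 h arrays, beside 8.37 on KO vehicle arrays. KO E2 24 h arrays averaged 8.18 and overlapped KO vehicle. The WT vehicle mean was 6.96, so Grb14 in these KO groups was low only against KO vehicle. Every array of both IGF1 groups lay below every KO vehicle array. In WT at 24 h after IGF1, where 4.28% of all genes were called, 2 list genes passed. Prkg1 was lower (-0.90 ± 0.25, adjusted p = 0.0404), and Calcb, a peptide of the calcitonin family, was above the floor on no array of either group (means 5.01 on IGF1 24 h arrays and 5.50 on vehicle arrays; adjusted p = 0.0337), so no change is drawn from it.

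The genes of most similar pattern were taken by Pearson r over the 30 arrays, among 12113 genes, as a description: the arrays share 10 groups, so r reads differences between groups together with the spread within them. Adm was most like Slc41a1 (0.920), Stat5b (0.895) and Ell (0.891). Angpt2 was most like Frmd4b (0.917), Pld1 (0.901) and Mettl7a1 (0.897), and Nos3 was most like Akirin1 (0.936), Ppan (0.934) and Vegfa (0.932). Aplnr was most like Col3a1 (0.902), Ppa2 (0.897) and Zfp946 (0.894), and Apln was most like Tmem39a (0.892), Mrps17 (0.840) and Bcas2 (0.838). Angpt1 was nearest to Cryzl1 (0.866), Zfp931 (0.834) and Ndp (0.820), Tek to Acadm (0.837), then Mocs1, and Col14a1 (0.776), and Edn1 to Thnsl2 (0.722), Tmem192 (0.719) and Gramd3 (0.702). Tie1 was nearest to Shank3 (0.666), Ntrk2 (0.633) and Tpcn2 (0.633). Among all pairs of the 9 genes themselves, Adm and Angpt2 had the highest r over all arrays (0.77), and Angpt1 and Nos3 the lowest (-0.74).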

How the data were processed

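RNA of 30 uterus samples was measured on arrays, and the log2 values deposited by the authors were used as they stand; how they were corrected for background, normalized and summarized is not given in the sources used here. Per the labels' protocols, RNA purified by Trizol and then RNeasy was labelled from 300 ng with the WT Plus kit. Of 72688 probe sets, 30604 had 1 gene symbol in the platform annotation; after 827 symbols were updated, 30142 genes were tested, 355 of them by the probe set of highest mean among several. Each gene described here has 1 probe set.

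Group means over all 30 arrays were fitted with limma 3.58.1 in R 4.3.3 (lmFit, eBayes, 20 residual degrees of freedom), with Benjamini-Hochberg adjustment over all genes and calls at an adjusted p under 0.05. The script was tested on simulated data. The 9 genes and the pathway and marker lists were chosen with earlier results of these data known. Called genes among the 9 are named in every comparison, whereas uncalled ones are in some comparisons given only as counts. For each list described, up to 4 called genes of largest change are named. Alternatives were another scaling, filter, prior, array weights, a fit of the compared groups only, a replicate block and each array left out. Same-numbered arrays deviated together (all 3 correlations over 0.1, from 0.147 to 0.433) only between KO and WT vehicle. Elsewhere the correlations ran from -0.285 to 0.235 and this rule was not met. With 3 arrays a group, that cannot show whether the replicate numbers pair arrays. The number of arrays limits the precision. RefSeq promoters are of GRCm38.p6.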

Additional observations from a re-analysis of the deposited data

Results flagged for a closer look

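At 2 h after E2 the change from vehicle differed between KO and WT by an interaction test in limma for 6 of the 9 genes. That test called 8% of all genes (3.61% higher, 4.39% lower). The KO change minus the WT change was -2.58 for Adm (adjusted p = 0.0138), -1.05 for Angpt2 (0.0165), -0.69 for Nos3 (0.0159), 1.33 for Edn1 (0.0118), 1.52 for Aplnr (0.0168) and 1.25 for Tek (0.0455). Adm, Angpt2 and Nos3 rose in WT, and Edn1, Aplnr and Tek fell, while none of the 6 was called in KO. The Tek interaction lost its call in 11 of 21 alternative settings. Those of Angpt2 and Aplnr lost it in 1 each, and those of Adm, Edn1 and Nos3 in 0.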

How the results depend on the processing

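Of 225 changes tested for the 9 genes in 25 comparisons, 43 were called; 25 kept their call under every alternative that applied, and none reversed. Of 182 uncalled, 33 were called under some alternative. Calls lost were 8 with arrays centred on their medians, 6 with quantile normalization, 8 when the fit held only the groups compared, 1 with array weights and 0 with dim genes removed, all probe sets averaged, a trended robust prior or the replicate block, which kept all 43; the cause was not tested. With arrays centred, the genes called were 1 (against 3) at IGF1 2 h in WT, 1 (against 0) at IGF1 2 h in KO, 1 (against 0) for E2 against IGF1 at 24 h in KO, 0 (against 1) for E2 24 h against 2 h in KO, 1 (against 2) for IGF1 24 h against 2 h in KO and 1 (against 0) for the interaction at E2 24 h; quantile normalization gave 1, 0 and 1 for IGF1 2 h in KO and these KO time comparisons, and removing dim genes 1 for IGF1 2 h in KO. With only the compared groups, E2 against IGF1 at 24 h in WT had 1 (against 0), the KO time comparisons 0 and 1, KO against WT 2 (against 1) at E2 24 h and 1 (against 0) at IGF1 24 h. With array weights, counts were 7 (against 3) and 2 (against 1) for IGF1 at 2 and 24 h in WT, 2 (against 0) and 3 (against 1) in KO, 2 (against 0) for E2 against IGF1 at 24 h in WT, 0 (against 1) for E2 24 h against 2 h in KO, 1 (against 0) for KO against WT vehicle, 2 (against 0) at IGF1 24 h and 1 (against 0) for the interaction at E2 24 h. Leaving out KO E2 24 h replicate 2 together with WT vehicle replicate 1, chosen after seeing the data, gave 0 (against 1) for E2 24 h against 2 h in KO.

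Leaving out 1 array at a time, the genes called ranged from 4 to 8 for E2 2 h in WT, 1 to 3 for E2 24 h in WT and for IGF1 2 h in WT, 0 to 3 for IGF1 2 h in KO, 1 to 2 for IGF1 24 h in KO, 0 to 5 for E2 against IGF1 at 2 h in KO, 4 to 5 and 3 to 4 for the WT time comparisons of E2 and IGF1, 0 to 2 and 0 to 3 for those in KO, 5 to 7 for KO against WT at E2 2 h, 0 to 1 at IGF1 2 h, 5 to 7 for the interaction at E2 2 h and 0 to 1 at E2 24 h, and did not move elsewhere. Over all genes, the number called moved by over 1.5 times in 12 of 25 comparisons with array weights, in 12 of 25 with only the compared groups, and in 15 of 25 on leaving out some single array. It ranged there from 310 to 3900 (2150 with all arrays) for IGF1 2 h in KO, from 34 to 2922 (916) for E2 against IGF1 at 2 h in KO, from 99 to 3771 (2839) for E2 24 h against 2 h in KO, from 28 to 332 (110) for E2 2 h in KO, from 0 to 38 (0) for E2 24 h in KO and from 278 to 1343 (1291) for IGF1 24 h in WT.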

Other observations

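Within groups, the 9 genes did not vary alike from array to array. Angpt2 and Angpt1 deviated together from their group means (r = 0.69 over 30 arrays after group means were removed), Angpt2 and Nos3 deviated in opposite directions (r = -0.81), and the highest array of a group for Tek was the lowest for Apln in 8 of 10 groups. These pairs were picked as the most extreme among all pairs of the 9 genes. KO IGF1 2 h had the largest SD of all groups for Angpt1 (0.60), Angpt2 (0.50) and Nos3 (0.32), so its arrays weigh heavily in these r values. The r values and array orders are descriptions over arrays that share RNA, labelling and scaling.

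The lymphatic endothelial markers fell at 24 h after E2 in WT, in 3 of 5 measured genes, with a mean level of 7.29 to 7.75 on E2 24 h arrays and 7.92 to 8.30 on vehicle arrays. The epithelial list rose there in 9 of 10 genes; of all genes 16.8% rose and 13.3% fell.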
